A study of Homo sapiens with 2 samples.

Results

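This text concerns 10 human genes that encode the PAF1 complex, the ELL family and the kinase complex that releases paused RNA polymerase II, out of 19719 protein-coding genes. The genes are PAF1, CTR9, LEO1, CDC73 and RTF1 of the PAF1 complex, the elongation factors ELL, ELL2 and ELL3, the scaffold AFF4 and the kinase CDK9. They were chosen by name after promoter peaks at ELL and CDC73 in these same lists were known, so the peaks that follow are a description and carry no test. The data came from MDA-MB-231, an established line of human triple-negative breast cancer, grown without treatment. The study profiled its chromatin by CUT&Tag, in which an antibody guides an enzyme that cuts and tags the DNA nearby, with 1 library for an antibody against PRMT6, an arginine methyltransferase, and 1 library for an antibody against PARP1, which attaches ADP-ribose to proteins, to find the promoters that both proteins occupy. Each library is known here only through its list of peaks, stretches of DNA with more sequenced fragments than the surroundings, and its read depth is unknown. A control-antibody library was not analysed here, and no value has a replicate.

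The PRMT6 list held 9080 peaks and the PARP1 list held 11651. The smallest width was common, 288 bp in 53.1% of PRMT6 peaks and 200 bp in 30.1% of PARP1 peaks. For PRMT6 it was also the median width. Each peak carries a score, taken from its range of values to be the −log10 of a p-value of the peak caller. The score was used to rank peaks within a list, from 1 for the highest, and was not compared between lists. Many peaks have equal scores, with 705 distinct values for PRMT6 and 1157 for PARP1, and tied peaks received their mean rank. A score percentile is the share of a list that a peak outranks, with ties counted in equal parts. A promoter peak is a peak with any base within 3 kb of the 5′ end of the gene record. All positions are in GRCh38, and the records are those of RefSeq in GRCh38.p14. Whether a peak lies in an exon or an intron was not analysed here, so a peak is placed only as inside or outside a record.

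After it starts a transcript, RNA polymerase II often halts a short way into the gene and waits for the kinase CDK9, bound to a cyclin T, to release it. AFF4 ties this kinase to the ELL proteins in the super elongation complex, and ELL proteins raise the rate at which the polymerase adds nucleotides. The PAF1 complex travels with the polymerase and is needed for histone marks of transcribed genes, such as ubiquitination of histone H2B. CDC73 encodes parafibromin, a tumor suppressor of the parathyroid, and ELL is known as a fusion partner of the gene KMT2A (MLL) in leukemia.

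PRMT6 and PARP1 promoter peaks were both present at PAF1, CDC73, ELL and AFF4. CTR9 had a PARP1 promoter peak only, and LEO1, RTF1, ELL2, ELL3 and CDK9 had a promoter peak of neither antibody. The PRMT6 count was thus 4 of 10 genes (40%, 95% exact binomial interval 12.2% to 73.8%), beside 18.3% of all protein-coding genes. For PARP1 it was 5 of 10 (50%, 18.7% to 81.3%), beside 22.5%. The same 4 genes with both promoter peaks (40%) stood beside 13.4% of all genes. At each of these 4 genes the PRMT6 peak overlapped the PARP1 peak. Such overlap is usual where both are present. Over all genes, 2637 had both promoter peaks and 2544 (12.9%) had a PRMT6 promoter peak that overlapped a PARP1 peak. The intervals cover counting error only, and since ELL and CDC73 were known when the genes were listed, these shares cannot be read as a property of the complexes.

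**Figure D1:**
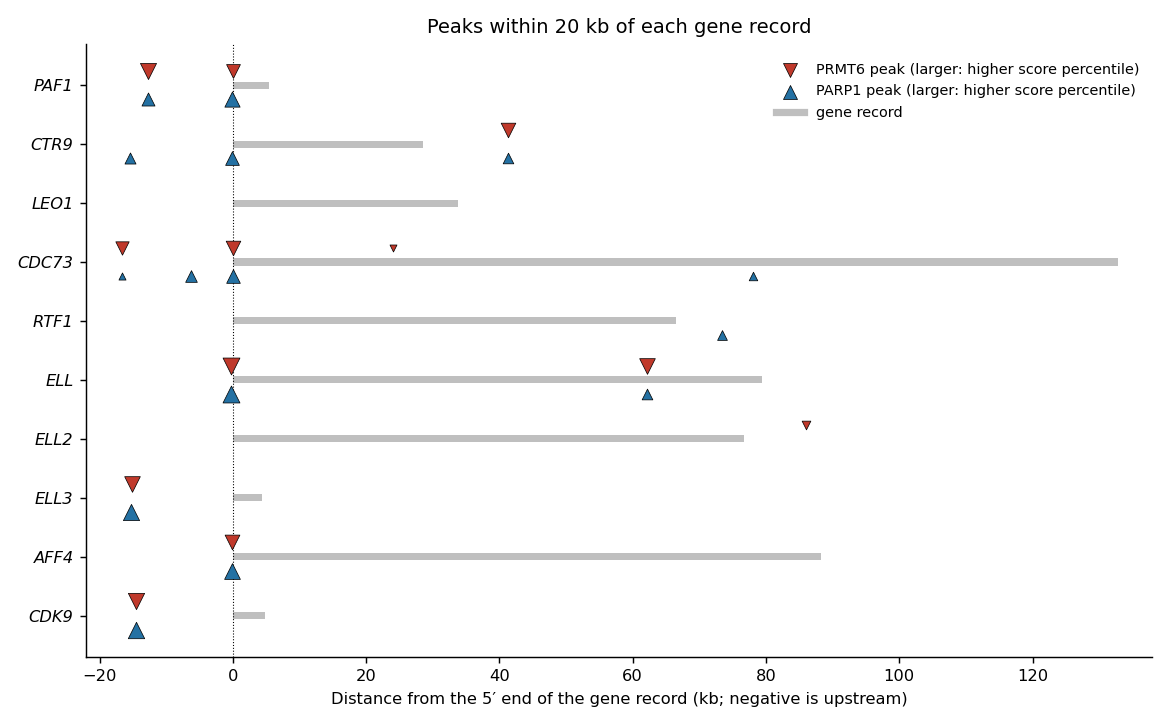
Position of every peak within 20 kb of the 10 gene records, with the distance from the 5′ end in kb on the horizontal axis (negative values lie upstream) and 1 row per gene. Grey bars are the gene records, triangles are peak midpoints, and a larger triangle has a higher score percentile. PAF1, CDC73, ELL and AFF4 have peaks of both lists at the dotted line that marks the 5′ end, CTR9 has a PARP1 peak there, and LEO1 has no peak in the range drawn.

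Of all members, ELL had the highest-scoring peaks in both lists. Its gene record lies on chromosome 19 from 18442663 to 18522070 on the minus strand. The PRMT6 peak (chromosome 19, 18522026 to 18522719, 693 bp) had a score of 35.7 and ranked 16, at percentile 99.8. The PARP1 peak (18522121 to 18522602, 481 bp) had a score of 47.23 and ranked 10, at percentile 99.9. The PRMT6 peak spanned the 5′ end of ELL, whereas the PARP1 peak ended 51 bp upstream of it and lay wholly inside the PRMT6 peak. The midpoints were 302.5 and 291.5 bp upstream of the 5′ end, 11 bp apart. Among genes with a promoter peak, ordered by their best one, ELL was number 14 of 3600 for PRMT6 and number 4 of 4430 for PARP1. Only 1 other protein-coding gene, CIC, ranked at least as high as ELL in both lists.

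The stretch upstream of ELL is shown because these peaks cover it. It runs over the 250 bases before the 5′ end (chr19:18522071-18522320, minus strand, RefSeq, GRCh38.p14), of which 250 lay under the PRMT6 peak and 200 under the PARP1 peak. Capitals mark the GC box, GGGCGG on either strand.
ELL: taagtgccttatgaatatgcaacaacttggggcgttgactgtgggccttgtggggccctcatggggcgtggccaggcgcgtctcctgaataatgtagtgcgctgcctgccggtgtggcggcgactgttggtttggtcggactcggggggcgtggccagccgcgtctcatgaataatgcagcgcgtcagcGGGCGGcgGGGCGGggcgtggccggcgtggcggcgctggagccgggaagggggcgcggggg
This stretch holds a sequence that occurs in 2 similar copies 83 bases apart, at positions -188 to -150 and -105 to -67 from the 5′ end. Of 39 aligned bases, 35 are identical, shown in capitals.
ELL, positions -188 to -150: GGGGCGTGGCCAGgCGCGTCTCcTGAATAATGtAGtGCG
ELL, positions -105 to -67: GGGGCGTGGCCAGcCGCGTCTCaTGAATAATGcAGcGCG
Of 13820 upstream stretches of the same length, 165 (1.19%) matched themselves without gaps as well as this or better, when 1 was added for an identical and 2 subtracted for a differing base, at copies at least 30 bases apart. This pattern was noticed after the sequence was seen and is given as a description.

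At 62 kb into the ELL record the lists met again. The PRMT6 peak there (18459789 to 18460117, 61953 bp downstream of the 5′ end) had a score of 8.93 and ranked 1462.5, at percentile 83.9. The PARP1 peak (18459865 to 18460065) had a score of 5.52, ranked 7678.5 at percentile 34.1, and had the smallest width of its list, 200 bp. It lay wholly inside the PRMT6 peak. Apart from CDC73, described later, no other member had a peak inside its record beyond the promoter window.

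ELL2, a paralog of ELL that is known for its part in immunoglobulin secretion by plasma cells, lies on chromosome 5 from 95885098 to 95961851 on the minus strand. It had no promoter peak, and the nearest peaks to its 5′ end were 64889 bp (PRMT6) and 100137 bp (PARP1) away. A PRMT6 peak of the smallest width (95875759 to 95876047, 288 bp, score 4.48, rank 7337.5) lay 9051 bp beyond the 3′ end of its record, inside the noncoding gene LOC105379091. No PARP1 peak overlapped it. ELL3, known for its expression in testis, is a short gene of 4347 bp on chromosome 15 (43772620 to 43776966, minus strand). Its 5′ end is 120 bp from that of SERF2 on the other strand, and no peak of either list lay within 3 kb of it. The nearest peaks, PRMT6 (43791863 to 43792475, score 8.78, rank 1487.5) and PARP1 (43792075 to 43792379, score 12.72, rank 1079), were 14897 and 15109 bp upstream, inside the SERF2 record. The PRMT6 peak spanned the 5′ end of the readthrough gene SERF2-C15ORF63 and the PARP1 peak lay 99 bp downstream of that 5′ end. The ELL family thus held the member peaks of highest score and 2 genes with no promoter peak.

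Among the genes of the PAF1 complex, PAF1 had peaks of both lists at a start site that it shares with a neighbor. PAF1, which gave the complex its name, lies on chromosome 19 from 39385629 to 39391106 on the minus strand, and the 5′ end of MED29, a Mediator subunit gene on the plus strand, is 272 bp away. The PRMT6 peak (39390970 to 39391258, score 6.22, rank 3356.5) was centered 8 bp upstream of the PAF1 5′ end and ended 120 bp short of that of MED29. It had the smallest width of the PRMT6 list, 288 bp. The PARP1 peak (39391069 to 39391427, score 9.43, rank 2409) spanned the 5′ ends of both genes, with its midpoint 142 bp from that of PAF1 and 130 bp from that of MED29. The peaks shared 189 bp, or 65.6% of the PRMT6 peak and 52.8% of the PARP1 peak. Which of the genes the peaks belong to cannot be told apart.

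A further pair of peaks lay upstream of PAF1, between MED29 and ZFP36, which encodes an RNA-binding protein that shortens the life of cytokine mRNAs. The PRMT6 peak (39403594 to 39404148, 12488 bp from the PAF1 5′ end) ranked 966, at percentile 89.4 of its list. The PARP1 peak (39403625 to 39404079) ranked 5221.5, at percentile 55.2. They were 2699 and 2768 bp upstream of the 5′ end of ZFP36 and so fall in the promoter window of that gene.

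CDC73 was among the promoters that the study took on to ChIP followed by quantitative PCR. The paper reports enrichment there, and higher CDC73 mRNA after knockdown of PRMT6, PARP1, CUL4B or DDB1. Its record lies on chromosome 1 from 193122031 to 193254815 on the plus strand. The PRMT6 promoter peak (193121834 to 193122142, score 7.05) and the PARP1 promoter peak (193121840 to 193122147, score 7.27) both spanned the 5′ end. Their ranks were 2558.5 and 4489.5, at percentiles 71.8 and 61.5. The PRMT6 score was tied among 64 peaks and the PARP1 score among 68. These peaks coincided most closely of the members' promoter pairs, with 302 bp in common, 98.1% of the PRMT6 peak, and midpoints 5.5 bp apart. Over the 2124 overlapping promoter pairs of all genes the midpoints were a median of 54 bp apart (quartiles 22.5 and 101.5 bp).

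Other peaks near CDC73 had lower scores than its promoter peaks. Inside the record, the PRMT6 peak 23872 bp downstream of the 5′ end (193145903 to 193146191) ranked 8285.5 and the PARP1 peak 77952 bp downstream (193199983 to 193200183) ranked 9544. Neither overlapped a peak of the other list, and both had the smallest width of their list. Upstream, a PARP1 peak (193115685 to 193115885, rank 6730) lay 6146 bp from the 5′ end at the edge of the noncoding gene LOC124904474. Overlapping peaks 16365 bp (PRMT6, rank 3793.5) and 16550 bp (PARP1, rank 10561.5) upstream lay inside the record of GLRX2, a mitochondrial glutaredoxin, at 448 and 633 bp from its 5′ end.

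CTR9, the scaffold subunit of the complex, lies on chromosome 11 from 10751246 to 10779746 on the plus strand. Its PARP1 promoter peak (10750970 to 10751314, 344 bp, score 7.32, rank 4395.5) spanned the 5′ end. The nearest PRMT6 peak was 41168 bp downstream of the 5′ end and 12668 bp beyond the record (10792414 to 10792731, rank 2558.5), where it lay wholly under a PARP1 peak (10792381 to 10792736, rank 7773). A PARP1 peak without PRMT6 overlap lay 15368 bp upstream (10735678 to 10735878, rank 7349). The score of the CTR9 promoter peak in the PARP1 list (percentile 62.3) was close to that of CDC73 (percentile 61.5). A PRMT6 promoter peak was listed at CDC73 and not at CTR9. Whether PRMT6 signal too low to be listed lies at the CTR9 promoter was not tested, since only the peak lists were read.

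LEO1 and RTF1 had no promoter peak. LEO1 (chromosome 15, 51938025 to 51971778, minus strand) starts 47 bp from MAPK6, a kinase gene on the other strand, yet was the only member with no peak of either list within 20 kb of its record. The nearest peaks were 96221 bp (PRMT6, rank 7337.5) and 47319 bp (PARP1, rank 7773) from its 5′ end. RTF1, whose product promotes the ubiquitination of histone H2B, lies on chromosome 15 from 41417095 to 41483563 on the plus strand. Its closest PARP1 peak (41490366 to 41490585, score 5.26, rank 8546) was 6803 bp beyond the 3′ end, and its closest PRMT6 peak (41391998 to 41392286, rank 8910) was 24809 bp upstream.

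AFF4 lies on chromosome 5 from 132875395 to 132963634 on the minus strand and shares its start region with the divergent noncoding gene AFF4-DT, 178 bp away. The PRMT6 peak (132963475 to 132964063, 588 bp, score 7.26, rank 2366) and the PARP1 peak (132963470 to 132963925, 455 bp, score 10.79, rank 1707.5) spanned both 5′ ends. They had 450 bp in common, 98.9% of the PARP1 peak, with midpoints 71.5 bp apart. The PRMT6 midpoint was 43 bp and the PARP1 midpoint 114.5 bp from the AFF4-DT 5′ end. No other peak lay within 20 kb of the AFF4 record.

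CDK9, the kinase of the complex, had no promoter peak. Its record covers 4759 bp of chromosome 9 (127786034 to 127790792, plus strand), and the 5′ end of the miRNA gene MIR3960 lies 201 bp from its own. The nearest peaks were strong and overlapped each other. The PRMT6 peak (127771295 to 127771763, score 11.53, rank 758) lay 14271 bp upstream. The PARP1 peak (127771283 to 127771602, score 14.52, rank 767.5) lay 14432 bp upstream. Both lay inside the record of SH2D3C, an adaptor protein gene on the other strand, about 7 kb from its 5′ end. Their percentiles, 91.7 and 93.4, were above those of the promoter peaks of PAF1, CTR9, CDC73 and AFF4.

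**Figure D2:**
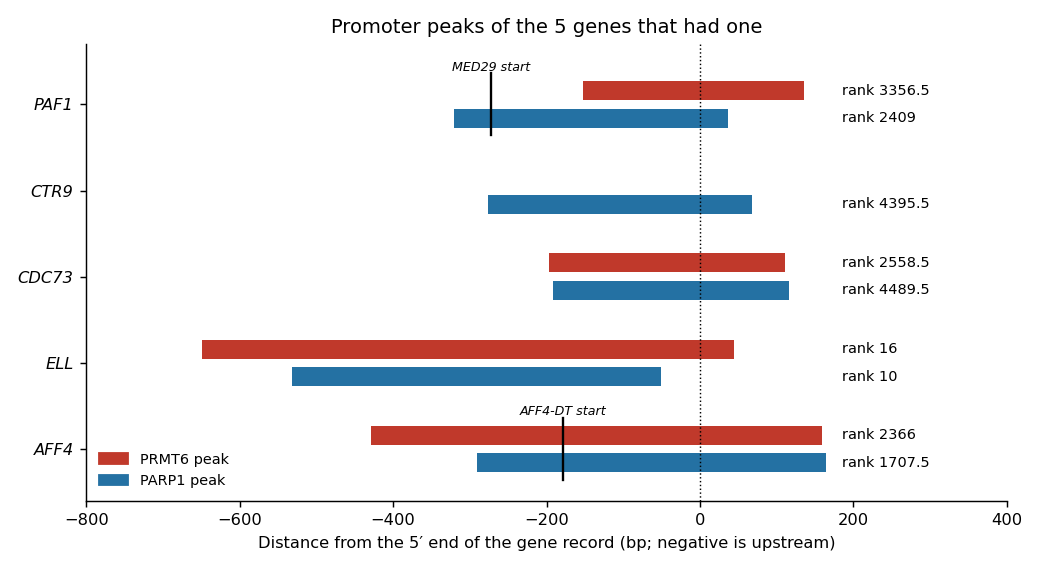
Extent of the promoter peaks of PAF1, CTR9, CDC73, ELL and AFF4 in bp from the 5′ end of the gene record (dotted line, negative values upstream), with PRMT6 in red above PARP1 in blue and the rank within its list beside each bar. Vertical marks show the 5′ ends of MED29 and AFF4-DT. The PARP1 peak at ELL is the only bar that does not reach the dotted line.

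All 9 promoter peaks of the members had their midpoints upstream of the 5′ end, from 8 bp (PRMT6 at PAF1) to 302.5 bp (PRMT6 at ELL), and 8 of the 9 spanned it. Over all genes with a promoter peak, the midpoint of the best one was upstream in 68.6% of genes for PRMT6 and 68.5% for PARP1, with median positions of -107.75 and -104.5 bp, where negative is upstream. The members' scores were spread widely. Within the PRMT6 list the promoter peaks stood at percentiles 63.0 (PAF1), 71.8 (CDC73), 73.9 (AFF4) and 99.8 (ELL). Within the PARP1 list they stood at 61.5 (CDC73), 62.3 (CTR9), 79.3 (PAF1), 85.3 (AFF4) and 99.9 (ELL). The order of PAF1 and CDC73 was thus opposite in the lists. Over all genes with both promoter peaks, the median percentiles were 78.5 for PRMT6 and 74.6 for PARP1, so that ELL was far above both medians and CDC73 below both.

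**Figure D3:**
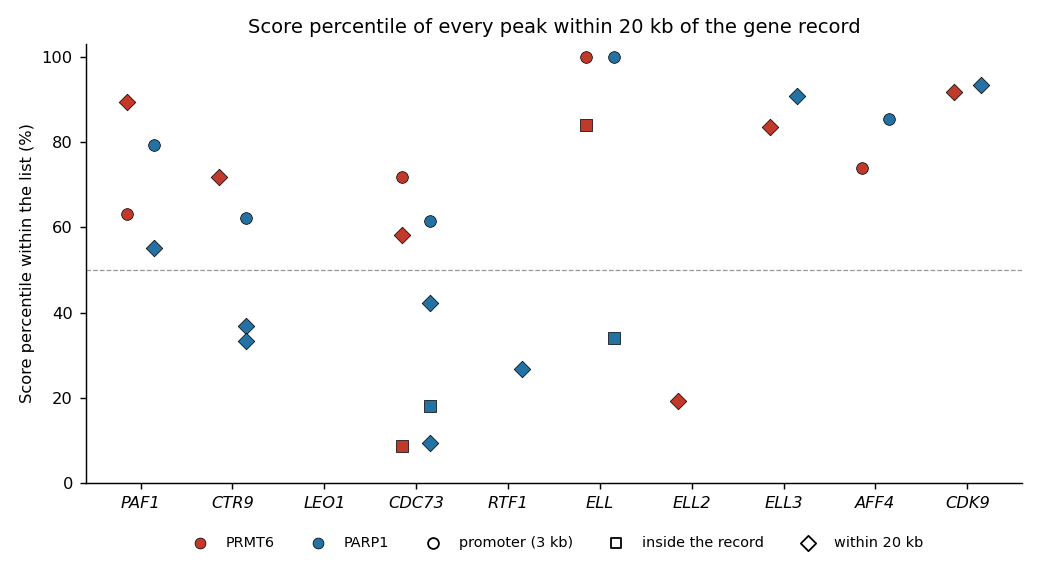
Score percentile within its own list, in percent, of each peak within 20 kb of a member's record, by gene and by place (circle, promoter; square, inside the record; diamond, up to 20 kb away). The dashed line is the middle of each list. The ELL promoter peaks are at 99.8 and 99.9, and the peaks upstream of CDK9 at 91.7 and 93.4 exceed every other promoter peak drawn.

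Counting all places, the members had 12 PRMT6 and 15 PARP1 peaks within 20 kb, and 10 of each overlapped a peak of the other list. Beyond the members' own promoters, 6 of 8 PRMT6 peaks and 6 of 10 PARP1 peaks overlapped, where 34.9% of PRMT6 and 27.2% of PARP1 peaks away from any coding promoter did. The pairs near ZFP36 and GLRX2 are promoter peaks of those genes, and among promoter peaks 69.2% of PRMT6 and 54.9% of PARP1 peaks overlapped. Inside their records, 4 of 10 members had a PRMT6 peak and 5 of 10 a PARP1 peak, beside 24.7% and 27.2% of all genes. Beyond the promoter window these counts fell to CDC73 and ELL in each list, 2 of 10, beside 13.2% and 14.6%. Their records, 132785 and 79408 bp long, are the first and the third longest of the 10. Within 20 kb of the record, 8 of 10 members had a PRMT6 peak and 8 of 10 a PARP1 peak, beside 43.2% and 48.4% of all genes. At 10 kb the counts were 5 for PRMT6 and 6 for PARP1. The shares of all genes at 10 kb were not computed, and those at 20 kb cannot stand in for them.

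The outermost promoter peak was 51 bp from a 5′ end, and the nearest peak outside the 3 kb window was the PARP1 peak 6146 bp upstream of CDC73. The outermost peak within 20 kb was 16550 bp from its record (CDC73, PARP1). Where a member had no peak of a list within 20 kb, the nearest was at least 23384 bp away (ELL2, PARP1). For the other members, peaks just beyond 20 kb were not listed.

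The upstream stretches of 250 bases were available for 8 of the 10 genes, all but CDC73 and ELL2. PAF1, AFF4 and CTR9 are printed because promoter peaks cover them, from chr19:39391107-39391356 (minus strand), chr5:132963635-132963884 (minus strand) and chr11:10750996-10751245 (plus strand) of GRCh38.p14. Capitals mark the GC box (GGGCGG), the CCAAT box (CCAAT), the core of ETS factor sites (CCGGAAG), the E-box (CACGTG) and the TATA box (TATAAA), each searched on both strands, and no match overlapped another.
PAF1: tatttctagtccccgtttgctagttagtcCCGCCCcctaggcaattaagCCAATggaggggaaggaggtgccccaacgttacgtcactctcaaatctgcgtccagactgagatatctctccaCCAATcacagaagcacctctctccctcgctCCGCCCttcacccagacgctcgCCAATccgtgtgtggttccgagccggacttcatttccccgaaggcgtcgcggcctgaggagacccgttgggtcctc
AFF4: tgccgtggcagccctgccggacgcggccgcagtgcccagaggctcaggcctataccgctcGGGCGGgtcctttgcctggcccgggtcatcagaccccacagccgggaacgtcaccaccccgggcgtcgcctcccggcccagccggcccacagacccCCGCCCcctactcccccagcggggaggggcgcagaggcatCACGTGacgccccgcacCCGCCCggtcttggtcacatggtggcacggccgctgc
CTR9: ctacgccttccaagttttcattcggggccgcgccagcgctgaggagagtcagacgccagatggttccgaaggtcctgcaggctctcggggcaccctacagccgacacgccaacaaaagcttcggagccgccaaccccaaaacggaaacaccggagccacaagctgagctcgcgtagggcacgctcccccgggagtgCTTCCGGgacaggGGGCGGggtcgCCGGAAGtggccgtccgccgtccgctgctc
At PAF1, 152 of these bases lay under peaks of both lists and all 250 under the PARP1 peak. At AFF4 all 250 lay under both peaks, and at CTR9 all 250 lay under the PARP1 peak.

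All 8 stretches held at least 1 GC box, those of genes without a promoter peak (LEO1, RTF1, ELL3 and CDK9) included, and 56.0% of 13820 upstream stretches did. The CCAAT box occurred at PAF1, in 3 copies, and in 35.2% of all stretches. The ETS core occurred at CTR9, in 2 copies, and at CDK9, and in 12.1% of all. The E-box occurred at AFF4 and in 7.87% of all, and the TATA box at none of the 8 and in 9.63% of all. Over all stretches, the GC box occurred in 74.1% of those with both promoter peaks and 49.6% of those with none. These shares were 49.6% and 31.7% for the CCAAT box and 16.7% and 9.54% for the ETS core. They were 9.53% and 7.34% for the E-box and 5.33% and 11.3% for the TATA box. Median GC content was 64.8% with both promoter peaks and 60.8% with none. The GC content of the 8 stretches ran from 57.2% (LEO1) through 58% (PAF1), 66.8% (CTR9 and ELL3), 68.4% (ELL), 70.4% (RTF1) and 75.2% (AFF4) to 82% (CDK9). The ratio of observed to expected CpG ran from 0.74 (RTF1) and 0.75 (AFF4) to 0.93 (LEO1 and CTR9) and 1.01 (ELL), beside medians of 0.84 for genes with both promoter peaks and 0.66 for genes with none. The members with and without promoter peaks thus overlapped in each of these measures, and a match of letters does not show that a factor binds there.

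Other genes of transcript elongation were taken as a list of 37, none of them a member. This list too was drawn up with earlier results of these data known, so its shares are a description. Of the 37, 10 had promoter peaks of both proteins (27.0%, 13.8% to 44.1%), beside 13.4% of all genes. The peaks overlapped at each of the 10, and over all genes 2637 had both promoter peaks and 2544 had such overlap. A PRMT6 promoter peak was found at 14 (37.8%, 22.5% to 55.2%) and a PARP1 promoter peak at 13 (35.1%, 20.2% to 52.5%). Of the 5 genes that control CDK9, 3 had both peaks. HEXIM1, which inhibits CDK9 when bound to the 7SK RNA, had a PRMT6 peak of rank 474 and a PARP1 peak of rank 3273 over its 5′ end. HEXIM2, its paralog, had peaks of ranks 658.5 and 276 at 1313 and 1355 bp downstream of the 5′ end. MEPCE, which caps the 7SK RNA, had peaks of ranks 2055.5 and 1079, at 246 and 395 bp downstream of the 5′ end. The gene ZCWPW1 had the same percentiles in both lists, 77.4 and 90.7. Whether these are the same peaks was not analysed here. LARP7, which stabilizes that RNA, had a PRMT6 peak only (rank 2317).

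Of 9 further genes of the super elongation complex and cyclin T, CCNT2 alone had both promoter peaks (ranks 1617.5 and 624.5), a share of 11.1% that is near the 13.4% of all genes. CCNT1 had a PARP1 peak only (rank 4929), and AFF1, AFF2, AFF3, MLLT1, MLLT3, EAF1 and EAF2 had none, nor did SKIC8, the remaining subunit gene of the PAF1 complex. With further starts from the RefSeq promoter table, AFF1 had promoter peaks of both lists. Of the little elongation complex, in which ELL acts at snRNA genes, ICE1 had both (ranks 882.5 and 636) and ICE2 a PARP1 peak only (rank 6836.5). NELF and DSIF hold the polymerase at the pause. Of the NELF genes, NELFE had both (ranks 2317 and 1938), NELFCD a PRMT6 peak only (rank 8572), and NELFA and NELFB none. The gene SKIC2 had the same percentiles as NELFE in both lists, 74.5 and 83.4. Whether SKIC2 and NELFE share these peaks was not analysed here. Of the DSIF genes, SUPT4H1 had a PRMT6 peak only (rank 7337.5) and SUPT5H none.

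Among the other 14 factors, both promoter peaks were found at CCNK (ranks 469 and 331.5) and CDK13 (ranks 2947 and 1342.5), a cyclin and its kinase that act on the polymerase within genes. They were also found at ELOC, which encodes elongin C (ranks 1291 and 360.5), and at SUPT16H, a subunit of the histone chaperone FACT (ranks 6682.5 and 6220.5). SETD2, the histone methyltransferase of transcribed genes, had a PRMT6 peak only (rank 6682.5) and TCEA1 a PARP1 peak only (rank 7127). SUPT6H, IWS1, SSRP1, TCEA2, TCEA3, ELOA, ELOB and CDK12 had none. None of these genes ranked as high as ELL in either list.

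**Figure D4:**
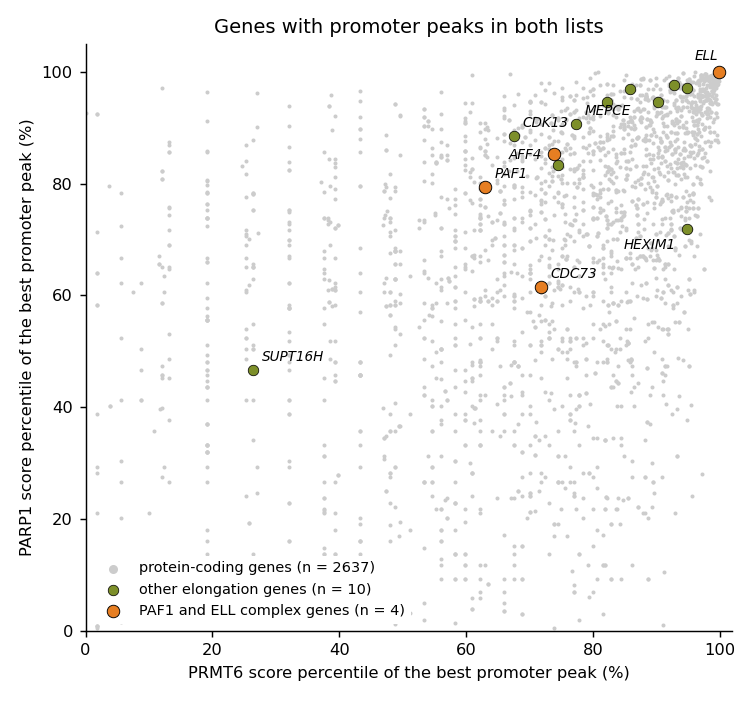
Score percentile of the best promoter peak in the PRMT6 list (horizontal, percent) against that in the PARP1 list (vertical, percent) for the 2637 protein-coding genes with both. The 4 members are orange, the 10 other elongation genes are green, and the columns of grey points are tied PRMT6 scores. ELL is in the upper right corner at 99.8 and 99.9, and CDC73 is the lowest member on the vertical axis at 61.5.

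For each member with both promoter peaks, the genes with the most similar pair of percentiles were sought outside the elongation lists. Likeness was the distance in percentile points over the 2 lists. Nearest to ELL were KPNB1 (percentiles 99.8 and 99.9, ranks 18 and 16) and AP2A1 (ranks 10 and 15). MED29 was nearest to PAF1 because the same peaks serve both, followed by ULBP3 (ranks 3438.5 and 2431). APLP2 (ranks 2366 and 1688.5) and SREK1 (ranks 2366 and 1662) were nearest to AFF4. USP37 and CNOT9, with the same ranks as each other (2558.5 and 4596), were nearest to CDC73. With 2 libraries and many tied scores, such likeness describes ranks alone.

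**Figure D5:**
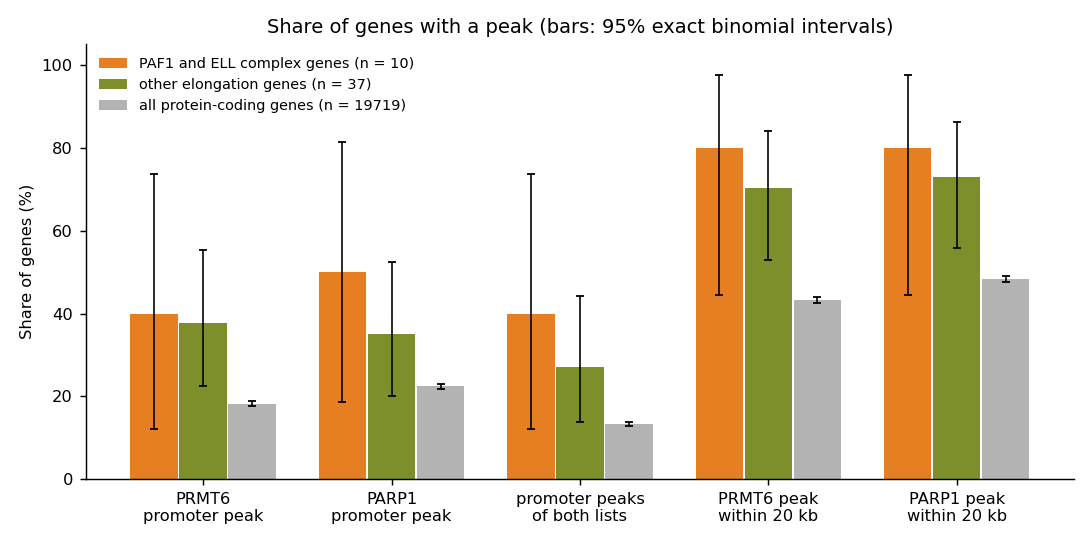
Share of genes, in percent, with a promoter peak of PRMT6, of PARP1 and of both lists, and with a peak of each list within 20 kb of the record, for the 10 PAF1 and ELL complex genes, the 37 other elongation genes and all 19719 protein-coding genes. Error bars are 95% exact binomial intervals, which cover counting error only. For promoter peaks of both lists the shares are 40%, 27.0% and 13.4%, where ELL and CDC73 were known to have such peaks when the 10 genes were listed. The 37 genes were also listed with earlier results of these data known.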

How the data were processed

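Peak lists of MDA-MB-231 chromatin were analysed, 1 for PRMT6 and 1 for PARP1, grouped by the antibody named in the labels. Per the labels and the paper's methods, the libraries were made with a CUT&Tag kit, although the labels also describe adaptor ligation to immunoprecipitated DNA. The submitters' processing notes name CASAVA 1.4, Bowtie 0.12.8, MACS and MACS2. Thresholds, handling of duplicates and a control library are not given in the sources used here. The deposited scores were read as −log10 p-values of the authors' peak caller, a unit taken from their range. Those notes name hg19, but 55 PRMT6 and 61 PARP1 peaks end beyond GRCh37 chromosomes. Peaks within 1 kb of a coding 5′ end made up 30.1% and 29.5% with GRCh38 records, against 4.04% and 3.94% with GRCh37 starts. GRCh38 was used.

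Strands for the RefSeq records of GRCh38.p14 came from the RefSeq promoter table for 15843 coding genes and otherwise from the GENCODE gene of that symbol or synonym (3876), and 331 genes were left out. For 70 genes the tables differed. Starts and ends are as listed, and sequence positions count back from the 5′ end. Overlap means at least 1 shared bp and was checked with bedtools 2.31.1 on simulated data. Python 3.11.15, pandas 2.3.3, numpy 2.4.6, scipy 1.17.1 (exact binomial intervals) and matplotlib 3.10.9 were used. With 1 library per antibody no test was made.

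The members and the elongation list were chosen with earlier results of these data known. Named are all members, the list genes with promoter peaks, the 2 genes most like each member with both peaks, and genes at a member's peak. Alternatives covered the window, score, peak width, list length, overlap rule, start sites and distance.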

Additional observations from a re-analysis of the deposited data

How the results depend on the processing

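Of 64 alternatives computed for the counts, 61 gave a count within 1.5 times the reported one and 45 the same count. The alternative that counts list starts from 0 was chosen after the data were seen and changed no count. The other 3 alternatives moved a count further, since each leaves out peaks. Only peaks outside the promoter window left 2 members with a PRMT6 peak inside the record in place of 4, and 2 with a PARP1 peak in place of 5. A distance of 10 kb left 5 members with a PRMT6 peak in place of 8. PAF1, CDC73, ELL and AFF4 stayed the genes with overlapping promoter peaks under several alternatives. These were windows of 1 kb and 5 kb on either side, and of 2 kb upstream to 500 bp downstream. They were also the higher-scoring 50% of each list, equal list lengths, peak midpoints and reciprocal overlap of 50%. The RefSeq promoter table gave 8 members 1 start each, at the 5′ end already used, and gave none for CDC73 and ELL2. Its further starts thus could not change a member count, although that alternative is included in the totals above. Without peaks of the smallest width, PAF1 lost its PRMT6 peak and 3 genes had both. That alternative leaves out 53.1% of the PRMT6 list and 30.1% of the PARP1 list. The elongation list gave 9 to 11 genes with both. Windows of 1 kb, and of 2 kb upstream to 500 bp downstream, lost HEXIM2. The higher-scoring 50% of each list lost SUPT16H, and the further starts added AFF1. The read depth behind the scores is unknown. No paired analysis was possible because there was a single library for each antibody.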

Other observations

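Some elongation genes without a promoter peak at the 5′ end of the record had peaks inside their records. AFF1, a paralog of AFF4 and a fusion partner of KMT2A, had 3 PRMT6 and 3 PARP1 peaks inside its record of 206029 bp. Further starts that RefSeq gives for AFF1 had promoter peaks of both lists. AFF3, another paralog, had 3 PRMT6 peaks and 1 PARP1 peak in 597172 bp, and AFF2 had no peak in 500047 bp. SUPT5H, the large subunit of DSIF, had 5 PRMT6 peaks but 1 PARP1 peak within 20 kb of its record of 31089 bp. Inside that record lay 1 PRMT6 peak and no PARP1 peak. Of all protein-coding genes, 24.7% had a PRMT6 peak and 27.2% a PARP1 peak inside the record. Longer records have more room for peaks, and length was not taken into account. These counts were noticed after the values were seen.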
